A study of Mus musculus with 42 samples.

Results

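The enteroendocrine transcription factors described here are 8 genes, Neurog3, Neurod1, Pax4, Pax6, Isl1, Nkx2-2, Insm1 and Rfx6, chosen by name among the 22180 mouse genes that the arrays measured. Each gene was read from the probe set that carries its symbol alone. All 8 were measured and none was removed by a filter. Enteroendocrine cells are the scattered hormone-producing cells of the gut lining. They arise from the same stem cells as the other epithelial cells, when a progenitor escapes lateral inhibition by Notch and briefly transcribes Neurog3, which switches on a cascade of further factors. Those factors hold the endocrine state and choose between hormones, so early members of the cascade mark progenitors and late ones mark mature cells.

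The study set pyloric stem cells of the mouse against other gut populations on 42 Affymetrix arrays, in 15 groups named by the titles. Adult, untreated mice of 3 lines were used, not selected for sex and at least 7 to 8 weeks old. The Lgr5-EGFP-IRES-CreERT2 line (IRES) carries green fluorescent protein and an inducible Cre at the Lgr5 locus, so that cells transcribing this stem cell marker fluoresce. From the distal stomach of this line, the pylorus, bright cells (Lgr5Hi) and dim cells (Lgr5Lo) are on 4 arrays each and whole tissue is on 2. In the small intestine bright cells, dim cells and crypts have 2 arrays each and whole tissue 1, and in the colon bright and dim cells have 3 each and whole tissue 2. The Lgr5-EGFP-DTR line (DTR) joins the fluorescent protein to a diphtheria toxin receptor at the same locus. Pyloric Lgr5Hi cells, Lgr5Lo cells and cells without fluorescence (Lgr5Neg) of that line are on 3 arrays each. Wildtype (WT) pylorus was sorted with an antibody to the water channel Aqp5 into 4 Aqp5Pos and 4 Aqp5Neg arrays. For the 9 DTR arrays another label field gives the IRES line as the model, and the title was followed. Both reporters are driven from the Lgr5 locus, and the fluorescent protein can outlast the transcript. The labels do not give whether cells of several animals were pooled.

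All 4 epithelial markers lay above background in all 15 groups. Lgr5 and Aqp5 followed the gates named for them, as group means. Whole colon replicate 1 went against its label: its 7 gastric markers averaged 11.48 on the log2 scale, against 4.18 in whole colon replicate 2, and its 5 colon markers 3.25 against 9.17. It was left out of all tests below and is given by itself. The small intestinal crypt arrays had Lgr5 at 4.81 and 5.04, below the Lgr5Lo arrays of that organ at 5.52 and 6.20 and the whole array at 7.09. Levels are log2 intensities, so a difference of 1 is a change of a factor of 2, and they are compared between groups within a gene and not between genes. The array sets no detection limit. A group mean under the 95th percentile of 1105 olfactory receptor genes in that group, between 3.91 and 4.62, is called near background here. Of the 120 levels of the 8 genes in the 15 groups, 87 lay above it.

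The genes lie on chromosomes 2, 6, 10 and 13 in the GRCm38.p6 annotation: Neurog3 at chr10:62133090-62134763, Rfx6 at chr10:51677760-51730429, Isl1 at chr13:116298270-116309688, Pax4 at chr6:28442334-28449340, and on chromosome 2 Neurod1 at chr2:79452637-79456636, Pax6 at chr2:105668896-105698410, Insm1 at chr2:146221997-146225020 and Nkx2-2 at chr2:147176485-147195434. Promoter windows from RefSeq, 250 bases before to 50 bases after an annotated start, were at hand for 6 of the 8 genes. Insm1 and Pax4 were not among them. The windows of the members whose levels differed most between groups are shown, on the strand of the gene and 5′ to 3′. Capitals mark only the E-box motifs named next. E-boxes with other letters were not searched for and stay in lower case. E-boxes are the sites of basic helix-loop-helix factors such as Neurog3 and Neurod1, and the letters CAGATG were searched on both strands, where the other strand reads CATCTG. The palindrome CAGCTG was searched as well, and so was a further palindrome with the letters CATATG. Occurrences of these motifs cannot overlap one another.
Neurog3, chr10:62132840-62133139: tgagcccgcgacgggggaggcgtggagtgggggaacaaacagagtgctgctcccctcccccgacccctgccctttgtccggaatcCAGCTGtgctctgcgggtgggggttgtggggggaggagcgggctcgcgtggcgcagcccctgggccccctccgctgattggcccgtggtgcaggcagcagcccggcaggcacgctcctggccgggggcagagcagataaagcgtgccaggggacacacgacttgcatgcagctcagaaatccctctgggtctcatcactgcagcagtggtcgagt
Isl1, chr13:116309639-116309938: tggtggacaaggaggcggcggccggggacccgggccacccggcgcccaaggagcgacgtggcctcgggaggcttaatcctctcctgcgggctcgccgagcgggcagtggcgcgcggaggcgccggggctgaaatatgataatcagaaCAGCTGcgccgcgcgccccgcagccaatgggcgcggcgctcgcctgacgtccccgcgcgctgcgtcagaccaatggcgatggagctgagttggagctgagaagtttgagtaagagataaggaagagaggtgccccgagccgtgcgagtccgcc
Nkx2-2, chr2:147186353-147186652: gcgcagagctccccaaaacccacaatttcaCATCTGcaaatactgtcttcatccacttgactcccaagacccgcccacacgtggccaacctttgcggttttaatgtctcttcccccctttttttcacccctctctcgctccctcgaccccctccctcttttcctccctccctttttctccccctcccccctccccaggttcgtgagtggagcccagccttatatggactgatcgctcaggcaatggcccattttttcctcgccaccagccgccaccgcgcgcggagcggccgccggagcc
Rfx6, chr10:51685268-51685567: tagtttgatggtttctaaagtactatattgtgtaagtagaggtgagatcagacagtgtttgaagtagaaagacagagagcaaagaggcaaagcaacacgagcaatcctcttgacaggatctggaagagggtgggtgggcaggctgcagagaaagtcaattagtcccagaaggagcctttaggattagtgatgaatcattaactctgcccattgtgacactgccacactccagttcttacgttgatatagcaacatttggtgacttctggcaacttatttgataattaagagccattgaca
The Neurog3 window held 1 CAGCTG at -165 from its start, the Isl1 window 1 CAGCTG at -103 and the Nkx2-2 window 1 CATCTG at -220. The Rfx6 window held none of the motifs, and both Pax6 windows likewise. The Rfx6 and Nkx2-2 windows lie within the annotated spans of their genes, as does the Pax6 window at chr2:105682213-105682512. The Neurod1 window held 1 CATATG at -242. At least one of the motifs occurs in 33.4% of 32851 mouse promoter windows of the same length, CAGATG or its reverse in 17.2%, CAGCTG in 16.3% and CATATG in 3.91%, so such a match is common and describes letters only.

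**Figure D1:**
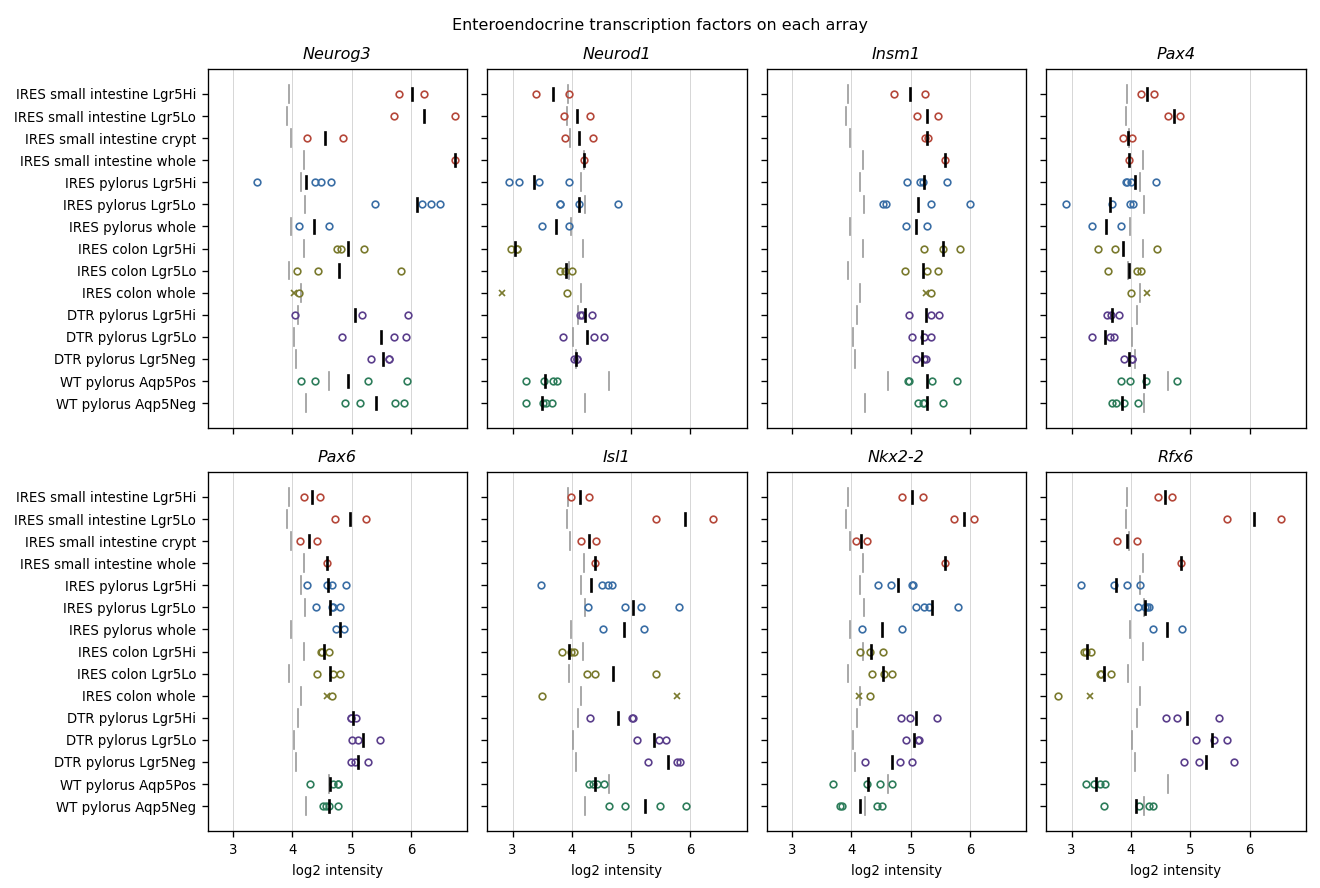
Log2 intensity of each gene on every array. Circles are arrays, black bars the group means, grey bars the 95th percentile of olfactory receptor genes in that group, and crosses the whole colon array with a gastric profile, for which no mean is drawn. Neurog3, Isl1, Nkx2-2 and Rfx6 vary widely between groups, Insm1 stays between group means of 4.98 and 5.58, and most group means of Pax4 and Neurod1 lie left of the grey bars.

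Across 19 comparisons and 8 genes, limma called 16 of 152 differences at a Benjamini-Hochberg adjusted p under 0.05 over all genes. Between gates, 1 of the 8 genes was called, as lower, in IRES pyloric Lgr5Hi against Lgr5Lo cells, where 2.34% of all genes were called either way. With the replicate number as a block, all-gene calls there numbered 879 in place of 518. In the small intestine 1 of 8 was called, as lower in Lgr5Hi cells, against 0.311% of all genes called (69 genes, and 2 to 150 with 1 array left out), and in the colon 0 of 8 were called, as was 0% of all genes. That colon count is 0 by limma within the line, with 1161 genes at an unadjusted p under 0.05 and 46 called in 1 fit over all arrays. Between DTR Lgr5Hi and Lgr5Neg cells 1 of 8 was called, as lower in Lgr5Hi, against 18.3% of all genes called. None of the 8 was called between Lgr5Hi and Lgr5Lo (4.97% of all genes) or between Lgr5Lo and Lgr5Neg (2.2%). None was called between Aqp5Pos and Aqp5Neg WT cells (2.8% of all genes). By organ, 0 of 8 were called between pyloric and colonic Lgr5Hi cells (8.3% of all genes), 2 were lower in pyloric than small intestinal Lgr5Hi cells (13.5%) and 1 was higher in small intestinal than colonic Lgr5Hi cells (3.4%). In Lgr5Lo cells 2 were higher in pylorus than colon (7.55%), 2 lower in pylorus than small intestine (9.38%) and 2 higher in small intestine than colon (5.39%). These counts rest on 1 or 2 genes each, and for pyloric against small intestinal Lgr5Hi cells and for the DTR comparison with Lgr5Neg cells the share of the 8 was near that of all genes.

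**Figure D2:**
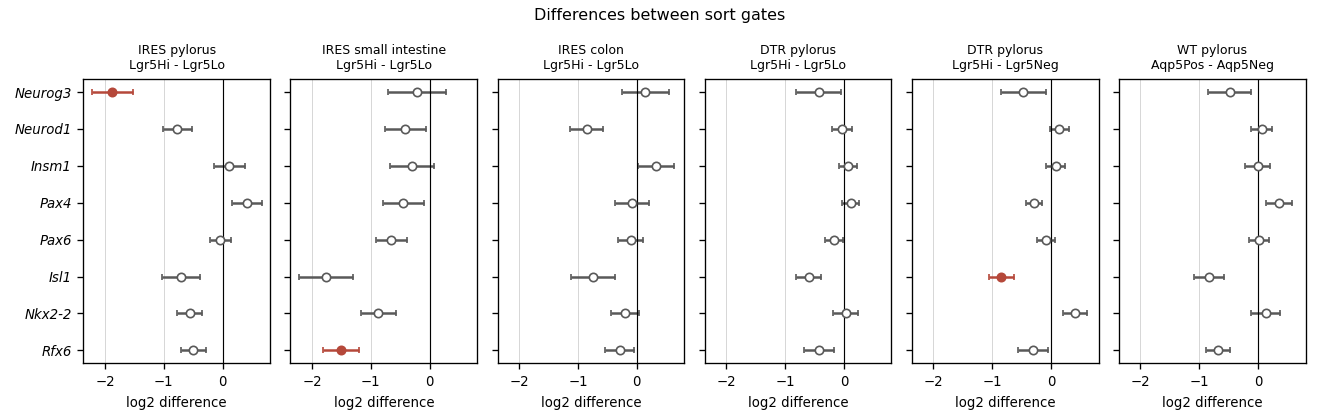
Log2 difference between sort gates for each gene in 6 comparisons, with its standard error. Filled red points passed an adjusted p under 0.05 in limma, open points did not. Neurog3 in the IRES pylorus (-1.88), Rfx6 in the small intestine (-1.51) and Isl1 between DTR Lgr5Hi and Lgr5Neg cells (-0.84) are the filled points.

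Neurog3, the basic helix-loop-helix factor that commits a progenitor to the endocrine lineage, was lower in bright than in dim Lgr5 cells of the IRES pylorus. Its level was 4.66, 4.48, 3.40 and 4.39 in the 4 Lgr5Hi arrays, against 5.40, 6.34, 6.48 and 6.19 in the 4 Lgr5Lo arrays. The groups did not overlap, and the lowest Lgr5Hi array fell under the background level of 4.15. The difference was -1.88 ± 0.35 (log2, SE; limma adjusted p = 0.00485). It passed in all 8 other settings and with each of the 8 arrays left out, at -2.11 to -1.60. In bulk RNA of sorted cells, fewer cells that transcribe a gene and less of its RNA per cell cannot be told apart. Whole pylorus had 4.12 and 4.62, below the Lgr5Lo arrays (1.74 ± 0.42 for Lgr5Lo minus whole, adjusted p = 0.0240, with 1 of 8 genes higher against 3.02% of all genes called, or 1178 genes in place of 669 with the replicate block). That call was lost without Lgr5Lo replicate 2 (adjusted p = 0.0587) or 3 (0.0527) and without whole replicate 1 (0.299) or 2 (0.163).

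Markers of small intestinal epithelium also averaged lower in Lgr5Hi than in Lgr5Lo cells of the IRES pylorus, with overlap of the arrays. The 6 measured ones averaged 4.63 to 6.27 across Lgr5Hi arrays and 5.58 to 7.22 across Lgr5Lo arrays, with 4 of 6 above background in Lgr5Hi cells and 5 of 6 in Lgr5Lo cells. Whole pylorus averaged 5.09 and 5.29, and the small intestinal Lgr5Lo arrays 9.80 to 10.00. Dividing cell markers averaged 7.04 to 7.52 in Lgr5Hi and 7.63 to 8.58 in Lgr5Lo arrays of the pylorus, with all 3 above background in both. Of general intestinal markers, Cdx1 was alike in both gates (4.21 in Lgr5Hi and 4.19 in Lgr5Lo cells). Cdx2 was higher in Lgr5Hi cells (4.89 against 4.17), Muc2 was lower (6.29 against 7.11), and none was called. The part of any of these markers in the Neurog3 difference was not tested.

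The same gates of the other tissues gave no call for Neurog3. In the small intestine it was 5.81 and 6.21 in Lgr5Hi arrays, against 5.71 and 6.74 in Lgr5Lo arrays (-0.21 ± 0.49). In the colon it was 5.21, 4.75 and 4.83 in Lgr5Hi arrays, against 5.84, 4.43 and 4.08 in Lgr5Lo arrays (0.15 ± 0.40). These groups overlapped. In the DTR pylorus the arrays were 4.05, 5.17 and 5.96 in Lgr5Hi, 5.92, 5.71 and 4.83 in Lgr5Lo and 5.62, 5.64 and 5.32 in Lgr5Neg cells, again with overlap. WT Aqp5Pos arrays had 4.14, 5.28, 5.93 and 4.38, and Aqp5Neg arrays 4.89, 5.73, 5.14 and 5.89 (-0.48 ± 0.36, adjusted p = 0.475). The bright-minus-dim difference of the IRES pylorus was itself set against that of the other tissues. It differed by -2.02 ± 0.53 from the colon (adjusted p = 0.100), by -1.66 ± 0.60 from the small intestine (0.380) and by -1.45 ± 0.60 from the DTR pylorus (0.906). None of the 8 genes passed in these differences of differences, where 0.415%, 0.0406% and 0.122% of all genes were called, so the pyloric difference was not shown to differ from the others. Against the colon, Neurog3 passed without colon Lgr5Lo replicate 1 (-2.55, adjusted p = 0.0230), and with the replicate block 250 genes in place of 92 were called.

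Between organs, Neurog3 was lower in pyloric than small intestinal Lgr5Hi cells (-1.78 ± 0.42, adjusted p = 0.00568, and 0.0937 without small intestine Lgr5Hi replicate 2). Dividing cell markers averaged 7.04 to 7.52 in these pyloric and 9.02 to 9.05 in these small intestinal arrays, with 3 of 3 above background in both, and their part was not tested. It was higher in pyloric than colonic Lgr5Lo cells (1.32 ± 0.37, adjusted p = 0.0301). The second call was lost without pyloric Lgr5Lo replicate 2 (adjusted p = 0.0710) or 3 (0.0727) and without colonic Lgr5Lo replicate 2 (0.160) or 3 (0.225). Small intestinal over colonic Lgr5Lo cells stood at 1.44 ± 0.45 (adjusted p = 0.0653), and at 1.97 (adjusted p = 0.00535) without colonic Lgr5Lo replicate 1. Ordered by group mean, the whole small intestine of the IRES line (6.75, 1 array) stood highest. Small intestinal Lgr5Lo (6.22), pyloric Lgr5Lo (6.11) and small intestinal Lgr5Hi (6.01) groups of that line came next. Neighbours among these lay within the larger SD. Single arrays of lower groups, such as DTR Lgr5Hi and colonic Lgr5Lo, overlapped arrays of these groups. Below a gap to 5.53, the other groups followed in steps no larger than their SD, from DTR Lgr5Neg down to IRES pyloric Lgr5Hi at 4.23. The 2 whole colon arrays had 4.04, in the one with the gastric profile, and 4.12.

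Neurod1, a basic helix-loop-helix target of Neurog3 needed for secretin and cholecystokinin cells, lay near background in 8 of 14 groups, whole colon left aside. Its group means ran from 3.04 in colonic Lgr5Hi to 4.25 in DTR Lgr5Lo cells. In the IRES pylorus it was 3.11, 2.93, 3.95 and 3.44 in Lgr5Hi arrays, against 4.78, 4.13, 3.81 and 3.80 in Lgr5Lo arrays. Both group means were near background, and the difference of -0.77 ± 0.24 did not pass (adjusted p = 0.102). It passed in 1 fit over all arrays (adjusted p = 0.0264) and without Lgr5Hi replicate 3 (0.0279). In the colon it was 3.07, 3.08 and 2.98 in Lgr5Hi arrays, against 4.00, 3.88 and 3.80 in Lgr5Lo arrays. These did not overlap, yet both were near background and -0.85 ± 0.28 missed the threshold (adjusted p = 0.722). The gene is annotated on the minus strand, while 17 of 20 probe sets numbered next to this one belong to plus-strand genes and 0 to minus-strand genes. The set may thus read the strand opposite to the gene, which is not settled, and the levels above are those of this set alone. A set that names both Neurod1 and Cerkl averaged 4.32 in small intestinal Lgr5Hi and 5.64 in Lgr5Lo cells, without overlap and untested. Its arrays overlapped between those gates in the IRES pylorus, the DTR pylorus and the colon.

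Insm1, a zinc finger repressor that acts alongside Neurod1 and is used as a marker of endocrine cells, was the flattest of the genes. Its group means lay between 4.98 in small intestinal Lgr5Hi cells and 5.58 in the whole small intestine, above background in 14 of 14 groups, with neighbouring groups in that order within their SD. Pyloric Lgr5Hi arrays of the IRES line had 5.16, 5.20, 4.94 and 5.62, against 6.0, 5.34, 4.59 and 4.53 in Lgr5Lo arrays. The Lgr5Lo arrays enclosed the Lgr5Hi arrays. The difference was 0.11 ± 0.27, with a 95% interval of -0.44 to 0.67, and in the DTR pylorus Lgr5Hi minus Lgr5Neg was 0.08 with an interval of -0.26 to 0.42. No comparison called the gene in any setting.

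Pax4 and Pax6 are paired-box factors, the first needed for the serotonin and somatostatin cells of the mouse upper gut and the second for gastrin and somatostatin cells of the stomach. Pax4 was near background in 11 of 14 groups. In the small intestine it was 4.39 and 4.16 in Lgr5Hi arrays, against 4.83 and 4.62 in Lgr5Lo arrays, which had its highest mean. These did not overlap, and the Lgr5Hi minus Lgr5Lo difference was -0.45 ± 0.35 (adjusted p = 1.00). Pyloric Lgr5Lo arrays had 2.91, 4.04, 3.99 and 3.68, below both small intestinal Lgr5Lo arrays. That organ difference, -1.07 ± 0.30, passed (adjusted p = 0.0266), with the pylorus near background. It was lost without pyloric replicate 1 (adjusted p = 0.0701) and without small intestinal replicate 1 (0.237) or 2 (0.0929). In all 3 gates of the DTR pylorus Pax4 stayed near background.

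Pax6 was above background in 14 of 14 groups and moved within a range of 0.91 in its group means. The 3 DTR groups stood highest, at 5.02 in Lgr5Hi, 5.19 in Lgr5Lo and 5.11 in Lgr5Neg cells. In the IRES pylorus it was 4.67, 4.25, 4.90 and 4.58 in Lgr5Hi arrays, against 4.39, 4.67, 4.81 and 4.69 in Lgr5Lo arrays (-0.04 ± 0.18, 95% interval -0.42 to 0.34). The groups overlapped throughout. In the small intestine it was 4.46 and 4.19 in Lgr5Hi arrays, against 5.24 and 4.72 in Lgr5Lo arrays, without overlap (-0.65 ± 0.26, adjusted p = 0.683). No comparison called Pax6 in any setting.

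Isl1, a LIM homeodomain factor needed for several intestinal hormone cells, stood lower in the bright or Aqp5-positive gate in all 5 sorted sets, with 1 call. In the DTR pylorus it was 4.31, 5.03 and 5.02 in Lgr5Hi arrays, 5.58, 5.10 and 5.46 in Lgr5Lo arrays and 5.77, 5.83 and 5.28 in Lgr5Neg arrays. The Lgr5Hi arrays lay below all the others. Lgr5Hi minus Lgr5Neg was -0.84 ± 0.22 (adjusted p = 0.0158) and Lgr5Hi minus Lgr5Lo was -0.60 ± 0.22 (adjusted p = 0.158). The call was lost without Lgr5Hi replicate 1 (adjusted p = 0.0539), without Lgr5Neg replicate 1 (0.0628) or 2 (0.0705), and in 1 fit over all arrays (0.167).

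In WT pylorus Isl1 was 4.53, 4.28, 4.35 and 4.42 in Aqp5Pos arrays, against 5.93, 5.48, 4.90 and 4.63 in Aqp5Neg arrays. The groups did not overlap and the Aqp5Pos mean was near background, but -0.84 ± 0.25 did not pass (adjusted p = 0.101). In the small intestine it was 3.99 and 4.29 in Lgr5Hi arrays, against 6.38 and 5.42 in Lgr5Lo arrays. That gap, -1.76 ± 0.46, was the widest of the 8 genes between these gates and did not pass within the line (adjusted p = 0.130), though it did in 1 fit over all arrays (0.0276). IRES pyloric arrays had 4.60, 4.68, 3.48 and 4.51 in Lgr5Hi, against 4.26, 4.90, 5.17 and 5.81 in Lgr5Lo cells, with overlap (-0.71 ± 0.32, adjusted p = 0.313). Colonic arrays had 4.03, 3.84 and 3.98 in Lgr5Hi, against 4.26, 4.39 and 5.42 in Lgr5Lo cells, without overlap and with the Lgr5Hi mean near background (-0.74 ± 0.37, adjusted p = 0.979). By level the order ran from small intestinal Lgr5Lo (5.90) through DTR Lgr5Neg (5.63) to colonic Lgr5Hi cells (3.95), and no step between neighbours exceeded the larger SD. Small intestinal over colonic Lgr5Lo cells was 1.21 ± 0.42 (adjusted p = 0.109), passing without colonic Lgr5Lo replicate 3 (1.58, adjusted p = 0.0389) and in 1 fit over all arrays (0.0478).

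Nkx2-2, a homeodomain factor whose loss in mice turns other endocrine cells toward ghrelin cells, was higher in small intestinal and pyloric than in colonic Lgr5Lo cells. Its arrays read 6.07 and 5.73 in small intestinal and 5.23, 5.31, 5.79 and 5.08 in pyloric Lgr5Lo cells, against 4.35, 4.55 and 4.69 in colonic Lgr5Lo cells. Both differences separated the arrays without overlap. Small intestine minus colon was 1.37 ± 0.27 (adjusted p = 0.00174, and 0.0689 without small intestinal Lgr5Lo replicate 1). Pylorus minus colon was 0.82 ± 0.22 (adjusted p = 0.0228), lost without pyloric Lgr5Lo replicate 3 (0.0705) and without colonic Lgr5Lo replicate 1 (0.119) or 2 (0.0760). In the IRES pylorus Lgr5Hi arrays had 4.44, 5.04, 5.02 and 4.67, all below the Lgr5Lo arrays (-0.56 ± 0.21, adjusted p = 0.180). Pyloric Lgr5Lo cells against whole pylorus gave 0.84 ± 0.25 (adjusted p = 0.0773, and 0.0433 without Lgr5Lo replicate 4). In the DTR pylorus the direction was the other way between Lgr5Hi (4.84, 5.44 and 4.99) and Lgr5Neg arrays (5.02, 4.82 and 4.22), with overlap (0.40 ± 0.21, adjusted p = 0.227). WT means were near background in both gates.

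Rfx6, a winged-helix factor that acts after Neurog3 and is needed for endocrine differentiation in the mouse gut, differed most between organs. Lgr5Lo arrays had 4.24, 4.27, 4.31 and 4.13 in the pylorus, 6.54 and 5.63 in the small intestine and 3.66, 3.49 and 3.49 in the colon. The small intestine stood above both, and the colon was near background. Small intestine minus colon was 2.53 ± 0.28 (adjusted p = 1.38e-06), and pylorus minus small intestine was -1.84 ± 0.26 (adjusted p = 3.19e-05). These calls passed in all 7 other settings and with each array left out. Pylorus minus colon in Lgr5Lo cells was 0.69 ± 0.23 (adjusted p = 0.0776).

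Small intestinal Lgr5Hi arrays also stood above those of both other organs for Rfx6, with 3.93, 3.71, 4.16 and 3.16 in the pylorus, 4.46 and 4.69 in the small intestine and 3.32, 3.24 and 3.21 in the colon. Pylorus and colon were near background, so no order is read between them. Small intestine minus colon was 1.32 ± 0.28 (adjusted p = 0.00567, and 0.0981 without small intestinal Lgr5Hi replicate 2). Pylorus minus small intestine was -0.83 ± 0.26 (adjusted p = 0.0378), lost without pyloric replicate 2 (0.0647) or 4 (0.109) and small intestinal replicate 1 (0.131) or 2 (0.258). DTR pyloric arrays of Rfx6 were at 4.59, 5.49 and 4.77 in Lgr5Hi, 5.61, 5.10 and 5.40 in Lgr5Lo and 5.74, 5.14 and 4.89 in Lgr5Neg cells, above background in all 3 gates and with overlap. Within the pylorus alone, group means of Rfx6 ran from 3.41 in WT Aqp5Pos through 4.24 in IRES Lgr5Lo to 5.37 in DTR Lgr5Lo cells. The DTR means stood above the small intestinal Lgr5Hi mean of 4.57. That spread between lines was not tested.

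Between gates, Rfx6 was lower in small intestinal Lgr5Hi than Lgr5Lo cells, by arrays that did not overlap (-1.51 ± 0.31, adjusted p = 0.0352). With 2 arrays a group the call was lost without Lgr5Hi replicate 1 (-1.40, adjusted p = 0.898), without Lgr5Hi replicate 2 (-1.62, 0.0530) and without Lgr5Lo replicate 1 (-1.05, 0.588), and by quantile normalization (-1.42, 0.0554). In the IRES pylorus it was -0.50 ± 0.22 (adjusted p = 0.284), with 1 of the Lgr5Hi arrays above the lowest Lgr5Lo array. WT Aqp5Pos arrays had 3.56, 3.24, 3.37 and 3.47, against 3.55, 4.36, 4.13 and 4.31 in Aqp5Neg arrays, both near background (-0.68 ± 0.20, adjusted p = 0.0982, and 0.0489 without Aqp5Neg replicate 1). Against whole pylorus, with 4.36 and 4.86, Lgr5Hi cells were lower by arrays that did not overlap (-0.87 ± 0.26, adjusted p = 0.0482), the 1 of 8 genes called there against 6.93% of all genes. That call was lost with the replicate block (adjusted p = 0.0689), with whole colon replicate 1 kept (0.0569), without Lgr5Hi replicate 1 (0.0531), 2 (0.0834) or 4 (0.128) and without whole replicate 1 (0.0837) or 2 (0.541). Markers of stroma and smooth muscle averaged 4.25 to 4.60 in Lgr5Hi and 4.83 to 5.55 in whole pylorus arrays, with 5 and 7 of 7 above background, and their part was not tested.

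**Figure D3:**
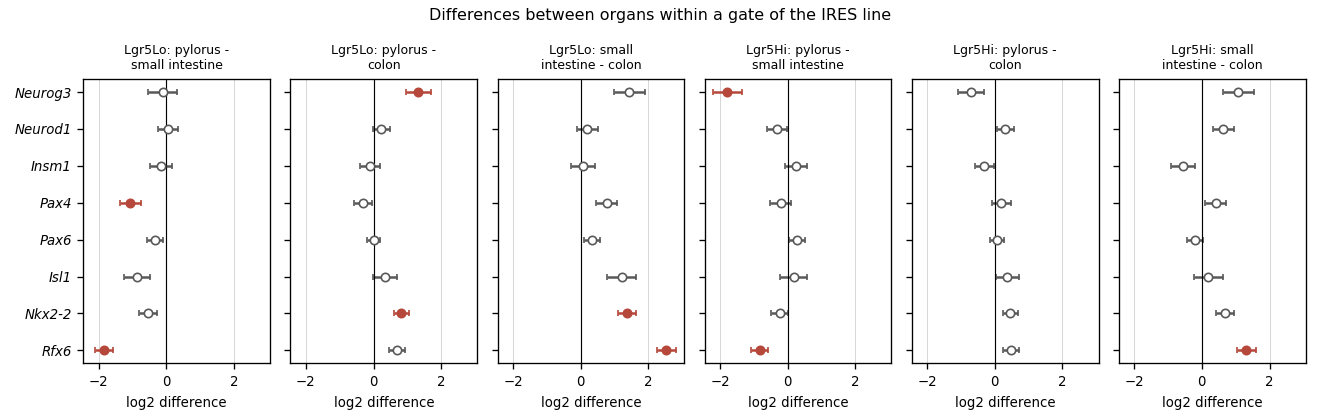
Log2 difference between organs within the Lgr5Lo and Lgr5Hi gates of the IRES line, with its standard error. Filled red points passed an adjusted p under 0.05 in limma. Rfx6 reaches 2.53 for small intestine minus colon in Lgr5Lo cells and 1.32 in Lgr5Hi cells, while Insm1 and Pax6 have no filled point.

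Small intestinal Lgr5Hi cells against the crypt arrays gave 2 higher genes of 8, against 14.4% of all genes called. Neurog3 was 5.81 and 6.21 in Lgr5Hi and 4.86 and 4.25 in crypt arrays (1.45 ± 0.49, adjusted p = 0.0498). Nkx2-2 was 4.85 and 5.20 in Lgr5Hi and 4.07 and 4.26 in crypt arrays (0.87 ± 0.29, adjusted p = 0.0498). Neither pair of groups overlapped. Both calls were lost without any one of the 4 arrays, at adjusted p of 0.122 and 0.0943 without Lgr5Hi replicate 1, 0.247 and 0.293 without Lgr5Hi replicate 2, 0.0728 and 0.239 without crypt replicate 1, and 0.351 and 0.140 without crypt replicate 2, for Neurog3 and Nkx2-2 in that order. Neurog3 also lost its call in 5 of 8 other settings, and Nkx2-2 in 4 of 8, among them the replicate block (adjusted p = 0.0548). Dividing cell markers averaged 9.02 to 9.05 in Lgr5Hi and 6.81 to 7.46 in crypt arrays, with 3 of 3 above background in both. The crypt arrays also differed in other cell markers. Slc2a2, which enterocytes use, averaged 4.92 in Lgr5Hi and 9.97 in crypt arrays, and Slc26a3 6.82 and 9.58. Of the immune markers Ptprc averaged 3.57 and 5.56 and Cd3e 3.31 and 5.42, while Cd14 went the other way (5.72 and 4.38). The part of any of these markers was not tested.

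The other genes of the endocrine programme were followed as lists. In IRES pyloric Lgr5Hi against Lgr5Lo cells, 0 of 13 hormone genes rose and 2 fell, with a list median of -0.47 against -0.04 over all genes, of which 2.34% were called. They were Ghrl, which encodes ghrelin (8.03 in Lgr5Hi and 11.24 in Lgr5Lo cells, -3.20 ± 0.30), and Pyy, which encodes peptide YY (-1.84 ± 0.42, adjusted p = 0.0213). Of 18 measured further endocrine transcription factors 0 rose and 1 fell, the homeobox gene Prox1 (-1.46 ± 0.35, adjusted p = 0.0280; list median -0.18). Of 9 measured genes that Neurog3 is known to induce, 0 rose and 1 fell, the cell cycle inhibitor Cdkn1a (-1.96 ± 0.24; list median -0.23). Of 14 granule and amine genes and 8 upstream regulators and brakes, 0 were called, at medians of -0.34 and -0.10. The 8 factors themselves had a median of -0.53.

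In small intestinal Lgr5Hi against Lgr5Lo cells the 13 hormone genes had a median of -1.72 and the 14 granule and amine genes one of -1.14, against 0.02 over all genes, with 1 and 0 members called lower. Ghrl was the called one (8.73 in Lgr5Hi and 10.80 in Lgr5Lo cells, -2.06 ± 0.43, adjusted p = 0.0384), where 0.311% of all genes were called. The 8 factors had a median of -0.55. Their mean per array was 4.51 to 4.74 in Lgr5Hi and 5.28 to 5.51 in Lgr5Lo arrays, and the mean of the hormone genes 6.11 to 6.54 and 7.42 to 8.07. Tuft cell markers also stood at 5.07 to 5.18 in Lgr5Hi and 5.66 to 6.11 in Lgr5Lo arrays, with 7 of 7 above background in both, and their part was not tested. In the colon 0 members of any of these lists were called, as was 0% of all genes. The medians of the factors, the hormones and the granule genes there were -0.15, -0.82 and -0.35.

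Called members of the lists went both ways in DTR Lgr5Hi against Lgr5Neg cells. In that comparison 18.3% of all genes were called, and shares of the lists near it say nothing particular about them. There 1 of 13 hormone genes rose and 3 fell: the gastrin gene Gast was at 0.43 ± 0.12, and the genes of somatostatin (Sst, -2.18 ± 0.41), the incretin Gip (-2.30 ± 0.36) and amylin (Iapp, -1.32 ± 0.17) were lower. Of 14 granule and amine genes 3 rose and 0 fell, namely the chromogranin gene Chga (1.07 ± 0.26), the prohormone-processing carboxypeptidase gene Cpe (1.21 ± 0.21) and Scg5 (0.59 ± 0.17). Of 18 further transcription factors 3 rose and 1 fell, with Sox4 at 0.83 ± 0.18, Nkx6-2 at 0.83 ± 0.20, Etv1 at 0.52 ± 0.14 and Hhex at -0.57 ± 0.15. Sox4 is known in mice as a factor of early endocrine progenitors and Hhex as a factor of somatostatin cells. Of 9 Neurog3-induced genes Btg2, an antiproliferative gene, rose (0.87 ± 0.20) and 0 fell. Of 8 upstream genes Notch1 rose (0.71 ± 0.14) and the inhibitor Id1 fell (-1.50 ± 0.23). Tuft cell markers averaged 6.48 to 7.37 in Lgr5Hi and 5.51 to 6.14 in Lgr5Neg arrays, with 7 of 7 above background in both, and dividing cell markers 6.62 to 7.60 and 8.64 to 9.16, with 3 of 3. Their part in these differences was not tested. Between Lgr5Lo and Lgr5Neg cells, where 2.2% of all genes were called, Gip (-2.13 ± 0.36) and Iapp (-0.75 ± 0.17) fell and Cpe rose (1.02 ± 0.21). Between Lgr5Hi and Lgr5Lo cells, where 4.97% were called, Id1 fell (-1.19 ± 0.23). No other member of these lists was called in either.

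In WT pylorus, Aqp5Pos against Aqp5Neg cells, 1 of 13 hormone genes fell, Ghrl (-2.12 ± 0.49, adjusted p = 0.0429), as did Cdkn1a (-1.53 ± 0.28, adjusted p = 0.0155) and Id1 (-0.86 ± 0.18, adjusted p = 0.0283), and 0 members of the lists rose, where 2.8% of all genes were called. Tuft cell markers averaged 4.56 to 4.84 in Aqp5Pos and 5.79 to 6.03 in Aqp5Neg arrays, with 3 and 7 of 7 above background. Dividing cell markers averaged 7.60 to 8.29 in Aqp5Pos and 8.52 to 8.81 in Aqp5Neg arrays, with 3 of 3 above background in both. The part of either was not tested.

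Between organs the lists moved as follows. In Lgr5Hi cells of pylorus against colon, 4 of 18 further factors rose and 1 fell, and against small intestine 5 rose and 2 fell, where 8.3% and 13.5% of all genes were called. Higher in the pylorus in both were Nkx6-3, a gastric homeobox gene (3.52 ± 0.30 and 3.23 ± 0.34), and Pdx1, the antral, duodenal and pancreatic homeobox gene (1.78 ± 0.25 and 1.30 ± 0.28). Atoh1, the Notch-repressed gene that opens the intestinal secretory lineage, was lower in pyloric Lgr5Hi cells than in colonic (-3.96 ± 0.32) and small intestinal ones (-1.80 ± 0.36). In Lgr5Lo cells of small intestine against colon, 6 of 13 hormone genes rose and 2 fell, against 5.39% of all genes called, among them Ghrl (5.76 ± 0.39), the tachykinin gene Tac1 (3.64 ± 0.45), Pyy (-4.54 ± 0.54) and the colonic hormone gene Insl5 (-4.62 ± 0.39). There 6 of 14 granule and amine genes rose and 0 fell, including Ddc, which makes amines (1.24 ± 0.28), and Slc18a1, which loads them into granules (1.15 ± 0.31). The 8 factors had a median of 0.99 in that comparison, the hormones 1.45 and the granule and amine genes 1.20, against -0.03 over all genes. The lists were chosen with results of these data known, so their counts describe these arrays.

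Islet and enteric neuron cells, which use some of these factors, were checked by their markers. Of the 3 measured islet genes 0 lay above background in any pyloric or colonic group and 1 did in the small intestinal groups, Slc2a2, which enterocytes also use. Of 6 measured enteric neuron genes 0 to 4 lay above background in a group, and the arrays of a list averaged between 3.60 and 4.43.

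Across the 14 groups other than whole colon, the group means of some factors ran in parallel. Pearson's r was 0.77 for Pax6 and Isl1, 0.75 for Isl1 and Rfx6, 0.73 for Neurog3 and Nkx2-2 and 0.72 for Nkx2-2 and Rfx6, given as a description over groups that share organ and line. After group means were removed, the same pairs had r of 0.10, 0.07, 0.10 and 0.28 over 39 arrays. Rfx6 followed Ghrl at 0.79 and Chgb, a granule gene, at 0.79 over the group means. It followed Tph1 (0.62), Sst (0.61), Chga (0.58) and Gast (0.22) less closely. With group means removed, its r with Ghrl was 0.29. Other factors followed these named genes less or not at all over the group means. Insm1 had r of -0.37 (Tph1) to -0.16 (Chga), Pax4 of -0.58 (Gast) to 0.01 (Tph1) and Neurog3 of -0.22 (Gast) to 0.40 (Ghrl). The range was 0.31 to 0.61 for Pax6, 0.30 to 0.69 for Isl1, 0.03 to 0.74 for Nkx2-2 and 0.15 to 0.76 for Neurod1. Of all genes the profile most like that of Rfx6 was that of Cryba2 (r = 0.90), followed by Cenpx (0.90) and Senp5 (0.88). For Neurog3 these were Dohh (0.89), Nxt2 (0.84) and Exo1 (0.84), and for Isl1 Gnao1 (0.84), Ube2l3 (0.80) and Cryba2 (0.78). For Nkx2-2 they were Snx32 (0.88), Rimbp2 (0.85) and Gng4 (0.84), and for Neurod1 Dnajc22 (0.83), Prkag2 (0.77) and Chgb (0.76). Pax6 was nearest to Tle6 (0.88), Gnao1 (0.84) and Map1b (0.84). Pax4 was nearest to Fscb (0.90), BB019430 (0.86) and St6galnac1 (0.86), and Insm1 to Slit3 (0.88), Hmx1 (0.88) and Myo18b (0.87). These are the highest r among 22180 genes over 14 means, a height that chance can also give. Pax4, mostly near background, and the flat Insm1 reach it too, so no shared regulation is read from these matches.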

How the data were processed

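The deposited table holds log2 values per probe set and array. RMA, oligo, Partek, limma 3.26.8 and R 3.2.3 are named, without role or order, per the submitters' processing notes, and no scanner files were used here. Of 41345 probe sets 23521 carried 1 symbol in the platform annotation, 1814 several and 16010 none. The single-symbol sets stand for 22180 genes. Where more than one set names a gene (1082 genes), the set with the highest mean was taken. Groups follow the titles. Replicates are biological ones per the labels, and no 2 arrays were identical (highest correlation 0.987). The number of arrays, and levels near background, limit the precision.

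Within each line, group means were compared by lmFit and eBayes of limma 3.58.1 under R 4.3.3, with p-values adjusted by Benjamini-Hochberg over all genes. IRES fits held 24 arrays, without whole colon replicate 1. The difference between reporter lines came from 1 fit over all arrays other than that one. Each fit was tested on simulated data with independent normal errors. Of 100 genes changed by 1 log2 unit, the fits recovered 3 to 77, and of 100 changed by 2 they recovered 57 to 100. At 1 unit the count was 18 between small intestinal gates and 55 between IRES pyloric gates. It was 12, 3 and 19 for the differences of differences with colon, small intestine and the DTR line. A gene that was not called is therefore not shown to be unchanged. Some alternatives kept whole colon replicate 1, used 1 fit over all arrays or used trended and robust eBayes. Others were a filter on low values and the mean of probe sets. Each factor has 1 single-symbol set, so none of these changes its differences, only their errors and adjusted p. Median centring, quantile normalization, a replicate block and each array left out can change the differences too.

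Named were the 8 factors, up to 4 called genes per list and comparison by smallest p, and the 3 genes nearest each factor in group means. The factors and lists were chosen with earlier results of these data known. Deviations of equally numbered arrays correlated at 0.16, 0.10, 0.27 and 0.30 in the IRES pylorus and 0.18, 0.14 and 0.24 in the colon. In the small intestine the value was 0.37, the same for both replicates because each group has 2 arrays. In DTR and WT these correlations ran from -0.11 to 0.17. Unequally numbered arrays were not compared and the titles give replicate numbers only. Whether the numbers pair arrays is therefore not settled.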

Additional observations from a re-analysis of the deposited data

Results flagged for a closer look

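Isl1 in IRES pyloric Lgr5Hi replicate 3 stood apart from the 3 others of its group, at 3.48 against 4.51 to 4.68. It was 1 of 32 sets of 4 arrays checked, and chance gives about 1 in 20.

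Some probe sets carry 2 symbols and name no single gene, so they entered no comparison, and their differences were not tested. The one for Neurod1 and Cerkl averaged 4.32 in small intestinal Lgr5Hi and 5.64 in Lgr5Lo cells, without overlap and above background in both. In the DTR pylorus it averaged 4.77 in Lgr5Lo and 4.53 in Lgr5Neg cells, also without overlap. The one for Nkx2-2 and its antisense RNA averaged 3.49 in small intestinal Lgr5Hi and 3.91 in Lgr5Lo cells, the second just above the background level of 3.9106. The one for Elp4 and Pax6 averaged 4.02 in WT Aqp5Pos and 4.59 in Aqp5Neg cells, without overlap.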

How the results depend on the processing

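Over the 23 pairs of a factor and a comparison called in any setting, 250 alternative values kept direction and side of the threshold, 53 kept the direction and lost the call, 9 gained it and 0 reversed. Neurog3 between IRES pyloric gates and Rfx6 between small intestinal Lgr5Lo cells and those of colon and of pylorus were called in every setting and with every array left out. The number of the 8 factors called moved as follows. In 1 fit over all arrays it was 0 for DTR Lgr5Hi minus Lgr5Neg, 2 between IRES pyloric gates, 2 between small intestinal gates and 1 for Lgr5Hi minus crypt. By quantile normalization it was 0 between small intestinal gates and 0 for Lgr5Hi minus crypt, by median centring 0 for Lgr5Hi minus crypt too, and by the trend and robust setting, the mean of probe sets or keeping whole colon replicate 1 it was 1 for Lgr5Hi minus crypt. For pyloric Lgr5Hi minus whole it was 0 with whole colon replicate 1 kept. With the replicate block it was 0 for pyloric Lgr5Hi minus whole and 1 for Lgr5Hi minus crypt, and the block changed no other count of the factors. With 1 array left out the count ran from 0 to 1 for DTR Lgr5Hi minus Lgr5Neg, WT gates, small intestinal gates, Lgr5Hi small intestine minus colon, pyloric Lgr5Hi minus whole and the difference of differences between pylorus and colon. It ran from 1 to 2 between IRES pyloric gates and for Lgr5Lo pylorus minus small intestine, from 0 to 2 for Lgr5Hi pylorus minus small intestine, Lgr5Lo pylorus minus colon and pyloric Lgr5Lo minus whole, and from 1 to 3 for Lgr5Lo small intestine minus colon. It was 0 throughout for Lgr5Hi minus crypt and the 6 other comparisons. All-gene calls in 1 fit over all arrays were 1696 in place of 4062, 223 in place of 1102 and 66 in place of 488 in the DTR comparisons with Lgr5Neg, with Lgr5Lo and of Lgr5Lo with Lgr5Neg, and 1389 in place of 621 in WT. They were 988 in place of 518 between IRES pyloric gates, 207 in place of 69 between small intestinal gates, 46 in place of 0 in the colon, 1205 in place of 669 for pyloric Lgr5Lo minus whole, 314 in place of 92 and 135 in place of 9 for the differences of differences with colon and small intestine. Keeping whole colon replicate 1 gave 330 between pyloric gates, 41 between small intestinal gates, 50 for the difference with colon and 17 in place of 27 for that with the DTR line, which median centring put at 14. The replicate block gave 112 between small intestinal gates, 2 in the colon and 55 for the difference with small intestine. For these differences quantile normalization gave 152 with colon and 15 with small intestine, and the low-value filter 14 with small intestine. Quantile normalization also moved the split of higher and lower genes, to 350 and 328 in place of 202 and 316 between IRES pyloric gates, 153 and 261 in place of 121 and 500 in WT, and 573 and 900 in place of 444 and 1094 for pyloric Lgr5Hi minus whole. With 1 array left out, all-gene calls ran from 325 to 1036 and from 181 to 367 for DTR Lgr5Hi minus Lgr5Lo and Lgr5Lo minus Lgr5Neg, 196 to 893 in WT, 272 to 665 between IRES pyloric gates, 2 to 150 between small intestinal gates, 0 to 7 in the colon, 514 to 1585 and 105 to 1047 for pyloric Lgr5Hi and Lgr5Lo minus whole and 1542 to 2406 for Lgr5Hi minus crypt. Between organs they ran from 1385 to 2877 and 404 to 661 for Lgr5Hi pylorus minus small intestine and small intestine minus colon, and in Lgr5Lo cells 1116 to 2143 for pylorus minus colon, 1027 to 2550 for pylorus minus small intestine and 587 to 1087 for small intestine minus colon. For the differences of differences they ran from 11 to 179 with colon, 3 to 57 with small intestine and 3 to 55 with the DTR line. Levels near background and 2 arrays a group in the small intestine limit what can be called.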
